A study of Mus musculus with 6 samples.

Results

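In the H3K27me3 peak list of C3H10T1/2 cells, 662 of 3999 peaks were of middle length and lay far from H3K36me3. They were chosen by length and by distance from the other list, as peaks of 5 kb to below 100 kb whose nearest H3K36me3 peak was more than 100 kb away, measured from edge to edge. There were 2222 H3K27me3 peaks of that length in all, and the other 1560, which lay within 100 kb of an H3K36me3 peak or shared bases with one, serve as the comparison. The members are called far peaks below, and the comparison peaks are called near peaks.

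H3K27me3 is laid down by Polycomb repressive complex 2 and is known as the mark of silent genes kept in a state that can be reversed, many of them regulators of development. H3K36me3 is written behind elongating RNA polymerase II by SETD2 and marks the gene bodies of active genes. Methylation of lysine 36 on a histone H3 tail is known to hinder the complex that methylates lysine 27 of the same tail, and the K36M form of H3.3 is known to inhibit the enzymes that methylate lysine 36. A stretch far from any listed H3K36me3 is thus one without this sign of transcription in the list.

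C3H10T1/2 is a line of multipotent mesenchymal cells from C3H mouse embryos. Cells at passages 10 to 15 stably expressed FLAG-HA-tagged H3.3, either wild type or the K36M mutant, so every group carried a tagged transgene. The series holds 6 libraries, which are an input, an H3K36me3 ChIP and an H3K27me3 ChIP for each genotype, with 1 library per group. The data are 2 lists of peak positions on the build mm9, 1 per mark, and neither list carries a genotype, a peak height or a read number. No comparison of wild-type with K36M cells was possible from them, and how many reads stand behind a peak is unknown. No gene names or sequences are given, because no annotation or genome of that build was used here. There is no replicate of either list and peaks are not replicates, so no test was made. The spread is shown by exact (Clopper-Pearson) 95% intervals of shares, which treat peaks as independent, and by the number of the 20 chromosomes that share an order.

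The distance rule took a similar part of the mid-length and of the broad peaks, and a larger part of the short ones. Of the mid-length peaks, 29.8% were far from H3K36me3 (95% interval 27.9 to 31.7). Of the 838 H3K27me3 peaks of 100 kb and longer, 240 were that far, or 28.6% (25.6 to 31.8), and of the 939 under 5 kb, 409 were, or 43.6% (40.4 to 46.8). Over all lengths 32.8% were. These shares follow from the rule and are given as a description.

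Far peaks covered 22.7 Mb. Their median length was 24.6 kb (interquartile range 10.0 to 53.3 kb). For near peaks it was 27 kb (12.4 to 54.9 kb), and the 95% intervals of the medians overlapped (22.4 to 28.6 kb and 25 to 28.8 kb). The median was shorter for far peaks on 13 chromosomes and longer on 7. The sets differed most in the shortest band. Peaks of 5 to 10 kb made up 24.9% of the far peaks and 18.3% of the near ones, and 36.7% of all peaks of that length were far (32.2 to 41.3). In the 3 longer bands the far part was 26.5% (10 to 20 kb), 28.0% (20 to 50 kb) and 29.2% (50 to 100 kb). The 178 far peaks of 50 to 100 kb held 58.0% of the bases of the far peaks, and the 165 of 5 to 10 kb held 5.14%.

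**Figure D1:**
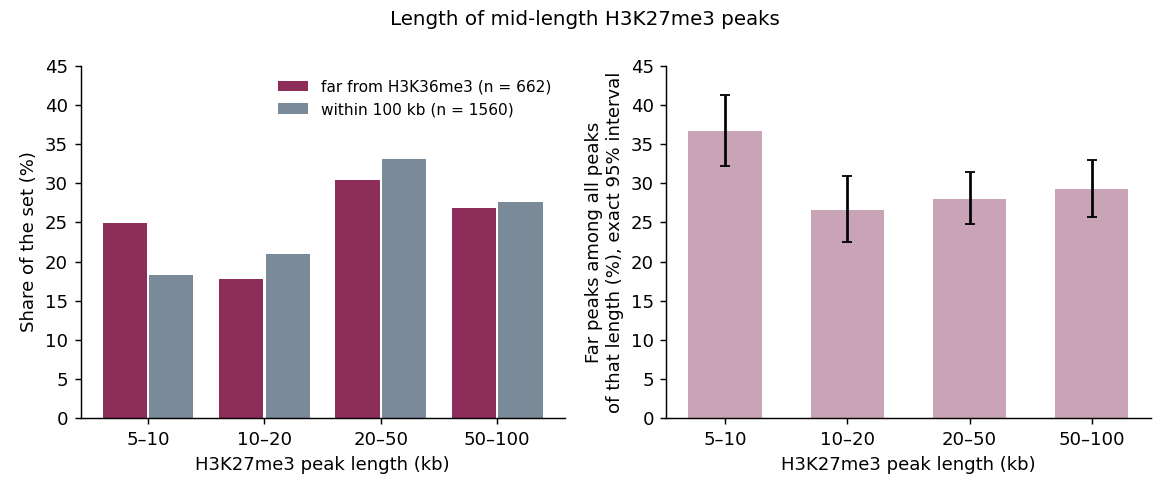
Lengths of mid-length H3K27me3 peaks in 4 length bands (kb). On the left, bars give the share of the 662 far and of the 1560 near peaks that falls in each band (%). On the right, bars give the far peaks among all peaks of the band (%) with exact 95% intervals, which is highest at 36.7% for peaks of 5 to 10 kb.

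Measuring the distance another way turned the order of the median lengths. With distances taken from centre to centre, which lets a long peak pass the limit more easily, 802 peaks were far and their median was 28.2 kb, against 25.4 kb. With lengths of 10 kb to below 50 kb the medians were 23.8 and 23.6 kb. That range leaves out the band of 5 to 10 kb, with 24.9% of far and 18.3% of near peaks, and that of 50 to 100 kb, with 26.9% and 27.6%. Their separate parts in the change of order were not tested.

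The longest far peak measured 99.8 kb, on chromosome 5 between 22683601 and 22783400. It lay 120 kb from H3K36me3 and 13.8 kb from another H3K27me3 peak of 66.8 kb. A peak of 99.6 kb on chromosome 17 (25560001 to 25659600) lay 18.2 kb from a broad H3K27me3 domain of 129 kb, in a group of 5 peaks. A second peak of 99.6 kb, on chromosome 12 (74662001 to 74761600), had no other H3K27me3 peak within 332 kb. On chromosome 10 (44149201 to 44248200) a peak of 99 kb was alone, 174 kb from the nearest other one. The fifth, of 98.4 kb on chromosome 1 (11491401 to 11589800), lay 1282 kb from H3K36me3 and 11.4 kb from a domain of 178 kb. The longest far peaks thus ranged from isolated ones to direct neighbours of a broad domain.

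The far peaks reached from just over the limit into the interior of very large stretches without H3K36me3. H3K36me3 was a median of 243 kb away (interquartile range 152 to 429 kb), and the farther of the 2 flanking H3K36me3 peaks lay at a median of 805 kb. For 159 far peaks (24.0%) that distance was 100 to 150 kb, and for 33 (4.98%) it was more than 1 Mb away. The 3 peaks just inside the limit lay 100.2 kb from H3K36me3 and were 7.4, 81.8 and 9.4 kb long. The 3 just outside it lay 99.8, 99.6 and 99.4 kb away and were 5.4, 16 and 37.6 kb long.

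The most remote far peaks were of mixed length. Of the 10 that lay more than 2 Mb from H3K36me3, 5 were 5.2 to 7.2 kb and 5 were 38.2 to 95.6 kb long. The most remote of all, of 5.2 kb and on chromosome 1 (113763201 to 113768400), had H3K36me3 4258 kb away on one side and 6424 kb on the other, and its nearest H3K27me3 peak was 2866 kb away. A neighbouring pair followed on chromosome 11, of 7.2 kb (26276601 to 26283800) and 5.2 kb (26576801 to 26582000), separated by 293 kb and 2483 and 2450 kb from H3K36me3. Next came a peak of 69.0 kb on chromosome 12 (120076001 to 120145000), beyond which no further H3K36me3 peak is listed, with the nearest one 2369 kb to its left. The fifth was a peak of 5.8 kb on chromosome 7 (94252601 to 94258400), 2297 kb away. Over all far peaks, length and distance from H3K36me3 were nearly unrelated (Spearman rho -0.083, n = 662 peaks of 1 list, a description). Peaks of 5 to 10 kb made up 19.5% of the far peaks 100 to 150 kb from H3K36me3, 28.2% of those at 500 to 1000 kb and 36.4% of the 33 beyond 1 Mb.

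Far peaks lay in 487 H3K36me3-free intervals, each being the stretch between neighbouring H3K36me3 peaks, of which 2 were open at a chromosome end. The interval around a far peak had a median length of 1121 kb (interquartile range 646 to 2024 kb, 658 peaks with H3K36me3 on both sides). In 362 intervals the far peak was the single one of its kind, and 300 far peaks (45.3%) shared their interval with 1 to 4 others. A broad domain of 100 kb or longer lay in 174 of the 487 intervals (35.7%), a short peak under 5 kb in 172 (35.3%), and a near mid-length peak in 178 (36.6%). For 112 far peaks (16.9%) no other H3K27me3 peak of any length lay in the interval.

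An interval must exceed 205 kb to hold a far peak, and 2087 closed intervals did. Far peaks were found in 10.1% of the 940 intervals of 205 to 500 kb, 27.3% of the 531 of 500 to 1000 kb, 37.6% of the 351 of 1 to 2 Mb and 42.6% of the 265 beyond 2 Mb. Part of that rise follows from the rule, which leaves more room in longer intervals. Without the 100 kb at each end, where no far peak can lie, there were 9.31 far peaks per 10 Mb in intervals of 205 to 500 kb, 6.71 in those of 500 to 1000 kb, 4.55 in those of 1 to 2 Mb and 1.93 in those beyond 2 Mb. Over whole intervals the values were 3.53, 4.85, 3.91 and 1.82 per 10 Mb, so the order of the 3 shorter classes depends on this choice, while intervals beyond 2 Mb were lowest both ways. Bases to which reads cannot be aligned were not taken out of the intervals. Of the intervals beyond 2 Mb, 59 (22.3%) held no H3K27me3 peak at all. In the 3 shorter classes, from the shortest up, this share was 32.4%, 22.0% and 23.4%, so the longest did not stand out.

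A single closed interval held 5 far peaks and 12 held 4. The first and the 4 longest of these 12 are described here, a choice that favours room for scattered peaks. The interval on chromosome 11 from 80288201 to 82578800 held 5 far peaks, of 6.2, 81.6, 83.2, 65.2 and 6.0 kb, and 2 short peaks. Its first far peaks were 16.6 kb apart and its later ones 217 and 321 kb apart. An interval of 2406 kb on chromosome 9 (66896201 to 69302000) held 4 far peaks of 5.4 to 21.0 kb, the first of them 17.4 kb from a broad domain of 115 kb. On chromosome 2 (109854601 to 112192400), 4 far peaks of 44.2, 14.6, 93.2 and 11.8 kb lay within 246 kb of an interval of 2338 kb that held no other H3K27me3 peak. On chromosome X (157019801 to 159199400), peaks of 18.2, 16 and 90 kb lay side by side and another, of 7.4 kb, stood apart. The fifth interval, on chromosome 17 (42987801 to 44740200), held far peaks of 18.6, 38.8, 49.8 and 24.0 kb, a domain of 103 kb and a short peak.

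**Figure D2:**
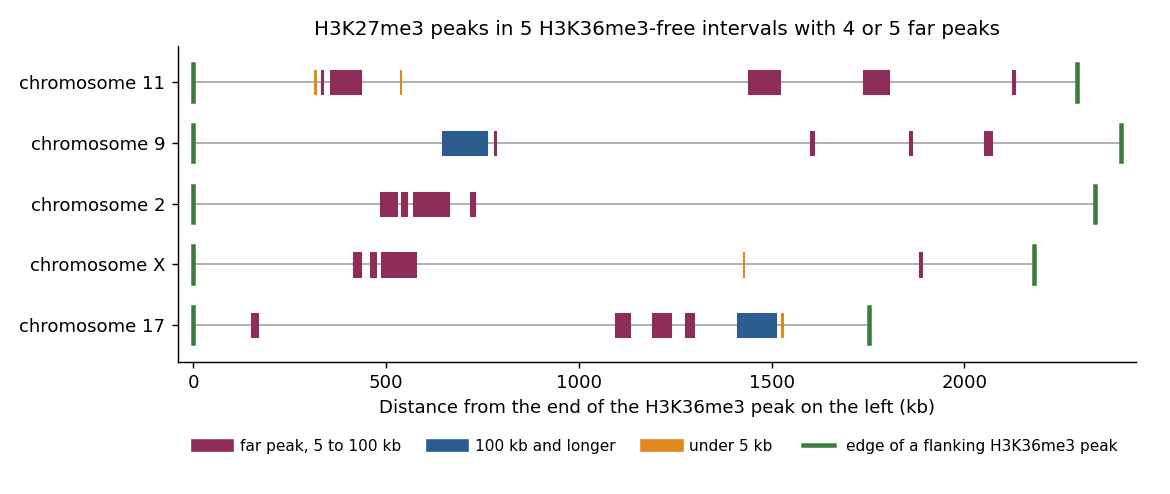
H3K27me3 peaks in the H3K36me3-free interval with 5 far peaks and in the 4 longest of the 12 with 4, 1 line per interval, drawn to scale as the distance from the left H3K36me3 peak (kb). Green marks are the edges of the flanking H3K36me3 peaks; on chromosome 2 the 4 far peaks lie together within 246 kb, whereas on chromosome 9 they are spread out.

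The spacing of far peaks from other H3K27me3 peaks depended on how far from H3K36me3 they lay, and as a whole they were spaced more widely than near peaks. The nearest other H3K27me3 peak, of any length, was at a median of 101 kb for far peaks and 61.4 kb for near peaks (95% intervals of the medians 78.8 to 121 kb and 54.4 to 67.2 kb). The median was greater for far peaks on 15 of 20 chromosomes. Within 50 kb, 37.2% of far peaks (33.5 to 41.0) and 45.1% of near peaks (42.6 to 47.6) had a neighbour, and the share was lower for far peaks on 15 chromosomes and higher on 5. Within 200 kb the shares were 63.3% and 81.3%, and 41 far peaks (6.19%) against 22 near peaks (1.41%) had no neighbour within 1 Mb.

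By the median and by the share within 50 kb, the wider spacing was found in the 393 far peaks more than 200 kb from H3K36me3. Of these, 29.8% (25.3 to 34.6) had a neighbour within 50 kb and the median distance was 147 kb (114.6 to 185 kb). In these measures the 269 far peaks at 100 to 200 kb from H3K36me3 were close to near peaks as a whole. Of these far peaks, 48.0% (41.9 to 54.1) had a neighbour within 50 kb, and their median was 60.6 kb (35.2 to 75.0 kb). Within 200 kb the shares were 73.6% (67.9 to 78.8) at 100 to 200 kb from H3K36me3 and 56.2% (51.2 to 61.2) beyond. Both were below the 81.3% (79.3 to 83.2) of near peaks. Near peaks also differed by distance from H3K36me3, without a single direction. Those at 50 to 100 kb had 53.0% within 50 kb and a median of 42.4 kb. At 10 to 20 kb the values were 38.1% and 72.4 kb, and at up to 5 kb without shared bases 47.9% and 56.6 kb. This split of the far peaks was made after their values were seen.

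Within 20 kb the shares were 24.5% of far peaks (21.2 to 27.9) and 24.2% of near peaks (22.1 to 26.4), so the order seen at 50 kb was not present there. This share averages 33.5% (27.8 to 39.4) for the far peaks at 100 to 200 kb from H3K36me3 and 18.3% (14.6 to 22.5) for those beyond 200 kb, values above and below that of the near peaks. The band of 20 to 50 kb, which held 12.7% of far and 20.9% of near peaks, made the difference at 50 kb. Mid-length peaks were sparser where far peaks lie, at 3.88 per 10 Mb of bases more than 100 kb from H3K36me3, against 22.8 near peaks per 10 Mb within 100 kb and outside H3K36me3. These densities count a peak that reaches across the limit wholly as near, which widens the difference. By bases, mid-length peaks covered 1.61% and 7.28%. The smallest gap in the H3K27me3 list was 10.2 kb, so neighbours at 10.2 to 20 kb may be pieces of 1 region that were listed apart, which was not tested. With peaks closer than 20 kb joined, 529 far peaks remained, and 17.2% of them and 26.9% of the near ones had a neighbour within 50 kb.

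**Figure D3:**
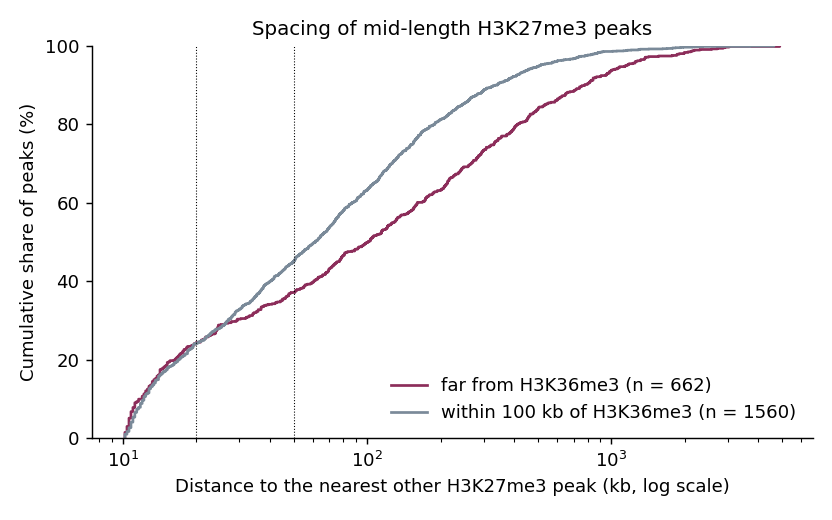
Cumulative share of far (662) and near (1560) mid-length H3K27me3 peaks (%) by the distance to the nearest other H3K27me3 peak (kb, log axis), with dotted lines at 20 and 50 kb. The curves, in which far peaks at all distances from H3K36me3 are pooled, lie together up to 20 kb (24.5% and 24.2%) and part beyond it, reaching 63.3% and 81.3% at 200 kb.

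Close neighbours went with length among far peaks. Another H3K27me3 peak lay within 20 kb of 17.0% of the far peaks of 5 to 10 kb (11.6 to 23.6), 17.8% of those of 10 to 20 kb, 26.4% of those of 20 to 50 kb and 33.7% of those of 50 to 100 kb (26.8 to 41.2). Among near peaks the same shares were 23.2%, 21.4%, 25.1% and 26.0%. With the bands pooled, 29.8% of far peaks of 20 kb and longer (113 of 379) and 17.3% of shorter ones (49 of 283) had such a neighbour, with the longer ones higher on 17 of 20 chromosomes. For near peaks the values were 25.5% and 22.2%, with the longer ones higher on 13. The order in far peaks was the same at 100 to 200 kb from H3K36me3 (39.5% and 24.3%) and beyond 200 kb (22.6% and 13.1%). This split by length was chosen after its values were seen, and the difference between far and near peaks in it was not tested.

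**Figure D4:**
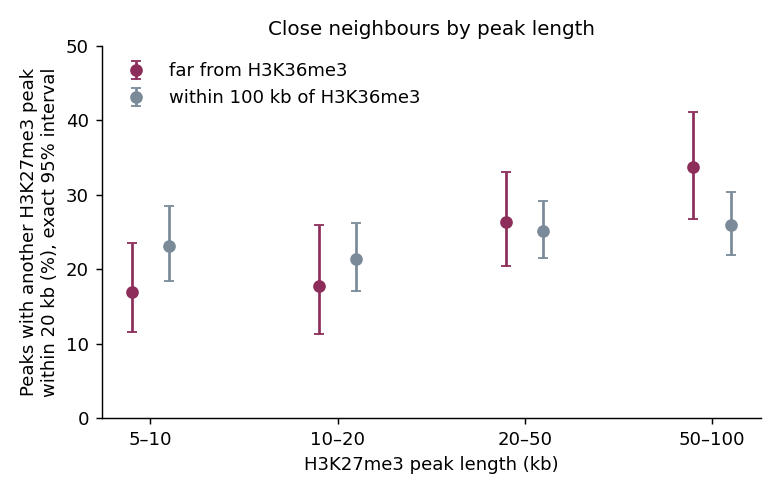
Share of mid-length H3K27me3 peaks with another H3K27me3 peak within 20 kb (%, points with exact 95% intervals) in 4 length bands (kb). For far peaks the share goes from 17.0% in the shortest to 33.7% in the longest band, and for near peaks it stays between 21.4% and 26.0%.

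The close neighbours of far peaks were often broad domains. Of the 162 far peaks with a neighbour within 20 kb, that neighbour was a peak of 100 kb or longer for 57 (35.2%, 27.9 to 43.1), another far peak for 58 (35.8%), a near mid-length peak for 33 (20.4%) and a short peak for 14 (8.64%). For the 378 near peaks with such a neighbour it was a broad domain for 73 (19.3%, 15.5 to 23.7) and a short peak for 58 (15.3%). Broad domains make up 21.0% of the H3K27me3 list. Over all mid-length peaks, a broad domain lay within 20 kb of 62 far peaks, or 9.37% (7.26 to 11.8), and of 76 near peaks, or 4.87% (3.86 to 6.06). The share was higher for far peaks on 15 chromosomes and lower on 5. Within 100 kb it was nearly equal, at 17.8% and 17.1%. A broad domain between a peak and H3K36me3 adds its length to the distance, so the rule may favour far peaks beside domains. How much of these shares follows from the rule was not tested.

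The 62 far peaks beside a broad domain had a median length of 46.7 kb (interquartile range 22.5 to 75.0 kb) and came from 18 chromosomes. The domains beside them had a median length of 154 kb, and 33 of the 62 (53.2%) were themselves more than 100 kb from H3K36me3. The median distance of these domains from H3K36me3 was 121 kb (interquartile range 10.3 to 230 kb). The nearest H3K27me3 peak lay on the side of the nearer H3K36me3 peak for 387 of 662 far peaks (58.5%, 54.6 to 62.2). No such share is given for near peaks. H3K27me3 covered 15.6% of the bases within 100 kb of and outside H3K36me3, and 7.64% of those farther away. The part of this in the 58.5% was not tested.

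Far peaks were for the most part alone or in pairs. When H3K27me3 peaks of any length at most 100 kb apart were joined into groups, 332 far peaks (50.2%) were alone, against 36.8% of near peaks. Groups of 3 or more peaks held 157 far peaks, or 23.7% (20.5 to 27.1), and 31.8% (29.5 to 34.2) of near peaks, and the share was lower for far peaks on 16 of 20 chromosomes. It was 28.3% (23.0 to 34.0) for far peaks at 100 to 200 kb from H3K36me3 and 20.6% (16.7 to 25) beyond. With gaps of at most 50 kb the shares in groups of 3 or more were 14.8% and 14.4%, so the order depends on the gap. Lone far peaks had a median length of 19.1 kb, those in pairs 29.2 kb and those in groups of 3 or more 35.2 kb. These medians are not given for near peaks. Gaps run from edge to edge, so peak length itself may enter the grouping, which was not tested. In groups of 5 or more peaks there were 30 far peaks.

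The far peaks fell into 581 such groups, of which 249 had 2 or more peaks. A broad domain was part of 109 of these 249 (43.8%), and 34 (13.7%) consisted of far peaks alone. There were 4 groups with 4 far peaks and 10 with 3, and the first 4 and the one of the 10 with the most bases in far peaks are described. The first was on chromosome 15 from 37135801 to 37851000, where 7 peaks in 715 kb included 4 far peaks of 78.8, 5.8, 61.6 and 98.0 kb, domains of 106 and 126 kb and 1 near peak. The group on chromosome 2 (110339401 to 110585200) was the cluster of 4 far peaks described above, with gaps of 10.6, 15.6 and 55.8 kb. On chromosome 7 (51418601 to 51871800) a near peak of 78.0 kb and a domain of 107 kb, 6.4 and 8.0 kb from H3K36me3, were followed by 4 far peaks of 85.0, 8.2, 15.6 and 53.8 kb. A group on chromosome 14 (15095001 to 15279000) consisted of 4 far peaks of 78.4, 22.4, 34.2 and 6.2 kb with gaps of 18.4, 11 and 13.4 kb, which covered 76.7% of its 184 kb. On chromosome 8 (25636401 to 25972000) far peaks of 25.8, 58.0 and 87.0 kb were followed by a near peak of 6.4 kb.

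Stretches more than 100 kb from H3K36me3 carried less H3K27me3 than those closer to it, and the difference was larger in mid-length than in broad peaks. These stretches made up 1708 Mb, which is 67.0% of the chromosome spans as defined by the outermost listed peaks. Of their bases, pooled over chromosomes, 7.64% lay under H3K27me3 (SD of the shares of the 20 chromosomes 3.09). Of the 685 Mb within 100 kb and outside H3K36me3, 15.6% did, pooled in the same way (SD 4.09). The far share was the lower on all 20 chromosomes. Mid-length peaks covered 1.61% of the far and 7.28% of the closer bases, and peaks of 100 kb and longer covered 5.96% and 8.16%. Of the H3K27me3 bases in the far stretches, 78.1% therefore belonged to broad domains and 21.1% to mid-length peaks, against 52.2% and 46.5% closer to H3K36me3. These bases include the parts of peaks within 100 kb of H3K36me3 that reach beyond 100 kb, which weighs more for broad domains. Of the 102 Mb under broad domains in the far stretches, 43.1 Mb belonged to domains that were themselves more than 100 kb from H3K36me3. Far peaks held 22.7 Mb of the 27.6 Mb under mid-length peaks there. The shares by length class thus depend in part on peak length.

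Far peaks were found on every chromosome, from 19 on chromosome 16 to 56 on chromosome 1. The percentage of mid-length peaks that were far was highest on chromosome 18 (49.1%, 35.4 to 62.9, 27 of 55), chromosome X (48.1%, 34.3 to 62.2, 26 of 54) and chromosome 6 (47.4%, 37.0 to 57.9, 45 of 95). It was lowest on chromosome 5 (18.5%, 12.2 to 26.2, 24 of 130), chromosome 11 (21.6%, 15.1 to 29.4, 30 of 139) and chromosome 17 (21.7%, 14.9 to 29.8, 28 of 129). The intervals of the first 3 and the last 3 did not overlap, but these chromosomes were picked as extremes.

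This percentage went with how much of a chromosome was far from H3K36me3 (Pearson r 0.63, Spearman rho 0.71 over 20 chromosomes, a description). Both values come from the same H3K36me3 list, so a relation of this kind follows in part from the rule. Over the 19 autosomes the coefficients were 0.53 and 0.67. Chromosome 11 had the densest H3K36me3, with 53.3 peaks per 10 Mb and 50.7% of its span far from it, and chromosome X the sparsest, with 15.1 peaks per 10 Mb and 81.3% of its span far. Chromosomes with a like far span could differ. On chromosome 9, where 63.1% of the span was far, 41.7% of the mid-length peaks were far, whereas on chromosome 10, where the far part of the span was also 63.1%, 29.4% were.

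**Figure D5:**
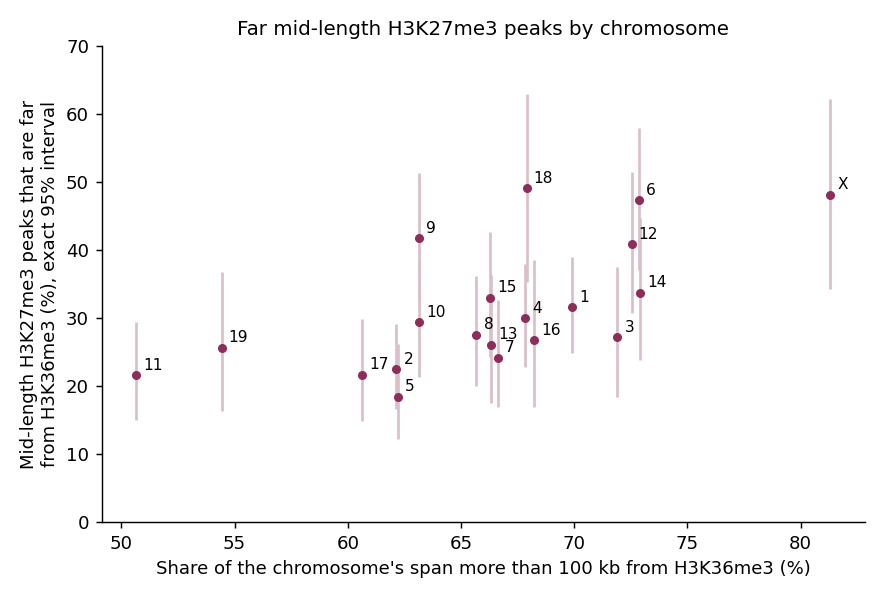
Percentage of each chromosome's mid-length H3K27me3 peaks that are far from H3K36me3 (points with exact 95% intervals, labelled by chromosome) against the share of the chromosome's span that lies more than 100 kb from H3K36me3 (%). Chromosome X lies at the right with 81.3% of its span far and 48.1% far peaks, and chromosome 11 at the left with 50.7% and 21.6%.

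Chromosome X held 3.93% of the far peaks (2.58 to 5.70) and 1.79% of the near ones (1.20 to 2.58). Relative to the room available far peaks were sparse there, with 2.00 per 10 Mb of far stretches, the lowest of the 20 chromosomes. The highest values were 6.34 on chromosome 19 and 6.31 on chromosome 9. Near peaks per 10 Mb of bases within 100 kb and outside H3K36me3 were also fewest on chromosome X. The low density there was thus shared by far and near peaks. No density was corrected for bases to which reads cannot be aligned. Far peaks on chromosome X had a median length of 38.3 kb and a median distance of 402 kb to the nearest H3K27me3 peak, the largest of all chromosomes, whereas near peaks there had 52.9 kb. The shortest such distance for far peaks was on chromosome 8, with 24.6 kb, where near peaks had 52.6 kb. From the first to the fifth of 5 equal parts of the span they made up 28.0%, 33.6%, 32.1%, 29.8% and 26.7% of the mid-length peaks, with overlapping 95% intervals, so no part of the chromosomes stood out.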

How the data were processed

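Per the submitters' processing notes, Bowtie 1.0.0 aligned the reads to mm9. How peaks were called, whether inputs served as background and which genotype a list describes is not given in the sources used here. The 2 deposited lists hold peak starts and ends in base pairs, which the authors gave with no other measure. Starts and ends fall on a grid of 200 bp, so peaks were read as runs of windows including both ends, and printed positions count from 1. Distances, groups, intervals and coverage were computed with Python 3.11.15, numpy 2.4.6, pandas 2.3.3 and scipy 1.17.1, and the functions were tested on simulated data. The 662 members, the groups and the lists were chosen with earlier results of these data known. Regions named were the 5 longest and 5 most remote far peaks, 3 on either side of the limit, the 5 closed intervals and 5 groups with the most far peaks (ties broken by interval length and by summed far-peak length), and the 3 highest and 3 lowest chromosomes. Genes were not analysed here. No value filter was applied.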

Additional observations from a re-analysis of the deposited data

How the results depend on the processing

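Of 141 values under alternatives chosen at the outset, 129 stayed within 1.5 times the reported number, the 95% interval or the SD over chromosomes, 8 moved beyond it, and 4 turned the order of far and near peaks. Most of the 141 only left out 1 chromosome, at 20 values per result or 19 for the share on chromosome X. All of these stayed, and each drops a small part of the peaks. The 8 and the 4 thus came from the smaller number of other alternatives. The number of far peaks was 393 with a limit of 200 kb and 319 with lengths of 10 to 50 kb. The median length turned with centre-to-centre distances (28.2 against 25.4 kb) and with lengths of 10 to 50 kb (23.8 against 23.6 kb). The share with a neighbour within 50 kb was 41.9% (near 43.4%) with a limit of 50 kb, 29.8% (45.5%) with 200 kb and 17.2% (26.9%) with peaks closer than 20 kb joined. Counted within 20 kb it was 24.5% (24.2%), and within 100 kb 49.8% (63.2%). The share in groups of 3 or more was 10.0% (20.6%) with joined peaks, 14.8% (14.4%) over gaps of at most 50 kb and 40.5% (55.0%) over 200 kb. Wider or narrower distances change these shares by construction, and the cause of the other changes was not tested. Leaving out each chromosome in turn moved the number of far peaks to 606 to 643, the median to 23.6 to 25.4 kb, the share within 50 kb to 35.9 to 37.9% and that in groups to 22.2 to 24.5%. No paired analysis was possible because neither list names its libraries and no group has a second one. Depth is unknown.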
